A study of Sus scrofa with 8 samples.

Results

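Peaks of m6A that parted the breeds were sought inside transcripts that were methylated in every animal, in muscle of Jinhua and Landrace pigs. Each animal has its own deposited list of m6A peaks, and 2474 genes had a peak in all 4 lists. Of these, 2255 had 4 or fewer peaks in each list and could be compared by position. Their peaks, merged on the transcript where they overlapped or adjoined, formed 4888 regions. Regions were chosen by the called peaks: a region was breed-parted when both animals of one breed had a peak in it and neither animal of the other breed did. This rule gave 311 regions in 289 genes, of which 171 were Jinhua-only and 140 Landrace-only. Since they were selected on these calls, their presence and absence by breed is a description and was given no test.

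The animals were 2 Jinhua males, a Chinese breed with more intramuscular fat, and 2 Landrace males, a Danish breed, all 180 days old. The tissue is given as muscle, and the muscle genes MYH1, the fast type IIx myosin heavy chain, and ATP2A1, the calcium pump of fast fibres, carried regions found in all 4 animals. An input library and a library immunoprecipitated (IP) for m6A were made from each animal, and 8 samples stand behind the 4 lists. The lists hold positions and no read counts, enrichment or p-values. The depth of each library is therefore unknown, and a missing peak is a missing call, not a measured absence of methylation.

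m6A is a methyl group on adenosine, written into messenger RNA by a methyltransferase complex built around METTL3 and METTL14. It can be removed by the demethylases FTO and ALKBH5, and it is read by proteins of the YTH family, which affect splicing, translation and decay. In many mammalian transcripts the mark is dense around the stop codon and in the 3′ UTR, and it also occurs in the 5′ UTR and in long internal exons. An antibody peak marks a stretch of about a fragment's length that holds methylated adenosine, not a base. Whether a peak is called also depends on the level of the transcript in the tissue, and fewer cells of a type and less RNA per cell cannot be told apart in whole muscle.

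Most regions were common to the breeds: 2552 of 4888 (52.2%) had a peak in all 4 animals. Another 604 (12.4%) had a peak in 3 animals, 650 (13.3%) in 2 and 1082 (22.1%) in 1. Breed-parted regions made up 6.36% of all regions. Jinhua-only regions were 3.50% and Landrace-only regions 2.86% of the total. The same count was made for the pairs that mix the breeds. Jinhua 1 with Landrace 1 had 71 private regions (1.45%) and Jinhua 2 with Landrace 2 had 88 (1.80%), 159 in that split (3.25%). Jinhua 1 with Landrace 2 had 84 (1.72%) and Jinhua 2 with Landrace 1 had 96 (1.96%), 180 in that split (3.68%). Each same-breed pair thus held more private regions than any mixed pair. The product of the 2 same-breed counts was 3.37 times the geometric mean of the products in the mixed splits. As a ratio of products it is larger than the ratio of the counts, 311 regions against 159 and 180. With 4 animals there are only these 3 ways to split them into pairs, and an exact two-sided permutation test over the animals cannot go below p = 0.333.

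**Figure D1:**
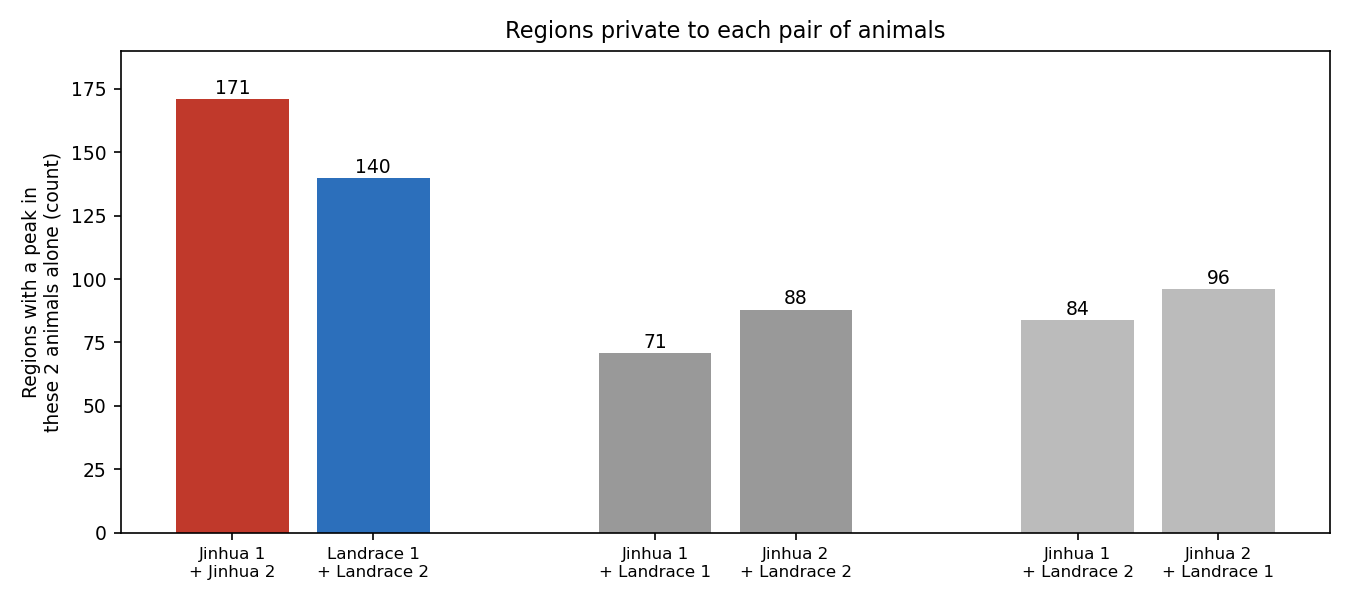
Number of regions with a peak in the 2 animals named under each bar and in neither of the others. The bars for the Jinhua pair (171) and the Landrace pair (140) stand above those for the 4 mixed pairs, which run between 71 and 96.

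The whole lists differed in length. Jinhua 2 held 7733 peaks in 4468 genes and Jinhua 1 held 6433 in 3863. Landrace 1 held 6471 in 3798 and Landrace 2 held 6176 in 3647. Within the genes analysed, limited to those in all 4 lists with 4 or fewer peaks in each, the lengths were closer. Jinhua 1 had 3775 peaks and Jinhua 2 had 4006, against 3765 in Landrace 1 and 3779 in Landrace 2. Jinhua averaged 3890.5 ± 163 peaks and Landrace 3772.0 ± 9.90 (SD, n = 2 each), a difference of 118.5. An exact two-sided permutation test gave p = 0.667. The rule itself capped peaks at 4 per gene and list, so the test was run on numbers already limited by the selection. With 2 animals per breed its p cannot go below 0.333, so it cannot decide whether the breeds differ. Without Jinhua 2 the difference was 3 peaks, and without Jinhua 1 it was 234. Breed-parted regions took 4.56% and 4.32% of the peaks of Jinhua 1 and Jinhua 2, and 3.72% and 3.73% of those of Landrace 1 and Landrace 2. Jinhua 2 stood apart in its private peaks, with 10.4% of its peaks found in no other animal, against 5.85% in Jinhua 1 and 6.43% and 5.45% in Landrace 1 and Landrace 2. Peaks with the same start and end in 2 lists were 1.41% to 3.47% of the peaks in either, most of all in the Landrace pair.

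The named gene with the most breed-parted regions was MYH7, the slow myosin heavy chain of type I fibres (ENSSSCT00000002271). Jinhua 1 listed 3 peaks on it and Jinhua 2 listed 4, against 1 in each Landrace animal, and no peak position was common to the breeds. The Jinhua-only regions lay in the coding sequence at bases 2981 to 3110, 3394 to 3638 and 5361 to 5560 of the transcript. At the first, Jinhua 1 had a peak at 2981 to 3080 and Jinhua 2 at 2981 to 3110. At the second, the peaks were at 3394 to 3633 in Jinhua 1 and 3431 to 3638 in Jinhua 2. At the third, they were at 5393 to 5560 in Jinhua 1 and 5361 to 5550 in Jinhua 2. The peak of the Landrace animals lay upstream of all 3, at 2531 to 2630 in Landrace 1 and 2539 to 2660 in Landrace 2, also in the coding sequence. The nearest Jinhua peak was 320 bases away from it. In all, MYH7 had 4 breed-parted regions.

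The other myosin genes kept peaks in common. MYH13, the extraocular muscle myosin heavy chain, had a coding region in all 4 animals at 3525 to 3689, a Jinhua-only region at 5247 to 5404 and a Landrace-only region at 3951 to 4090. MYH1 had coding regions in all 4 animals at 1364 to 1748 and 1951 to 2270. Its Landrace-only region lay at 3545 to 3710, with peaks at 3545 to 3700 in Landrace 1 and 3547 to 3710 in Landrace 2, and the nearest Jinhua peak was 88 bases away. Myosin heavy chain genes are close copies of each other, so reads can be shared between them and the assignment of their peaks is uncertain. MYBPH, a myosin-binding protein of the thick filament, had a Jinhua-only coding region at 251 to 510.

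Further members encode proteins of the thin filament and Z-disc. LMOD3, leiomodin 3, which helps build actin filaments in muscle, had a Jinhua-only coding region at 1191 to 1337, 53 bases from the nearest Landrace peak. MYPN, the Z-disc protein myopalladin, had a Jinhua-only coding region at 3741 to 3899. FHOD3, a formin that assembles actin, had a Jinhua-only coding region at 1955 to 2172. XIRP2, an actin-binding protein of the xin family, had a Jinhua-only region at 2877 to 3050, placed in the 3′ UTR by the list of Jinhua 1 alone. ANKRD1, a stress-responsive partner of titin, had a Jinhua-only region in the 3′ UTR at 1448 to 1622. On the Landrace side, NRAP, which anchors actin at the myotendinous junction, had a coding region at 3395 to 3550 with the same start and end in both animals, 26 bases from the nearest Jinhua peak. OBSL1, a cytoskeletal adaptor protein, had one at 3574 to 3750, 2403 bases from any Jinhua peak. NEXN, the Z-disc protein nexilin, had a Landrace-only 5′ UTR region at 1 to 139. By role, sarcomere genes held 10 Jinhua-only and 7 Landrace-only regions. Over all members the counts were 171 and 140. Roles were assigned to members alone, and whether any role leans to a breed was not tested, here or for the roles below.

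**Figure D2:**
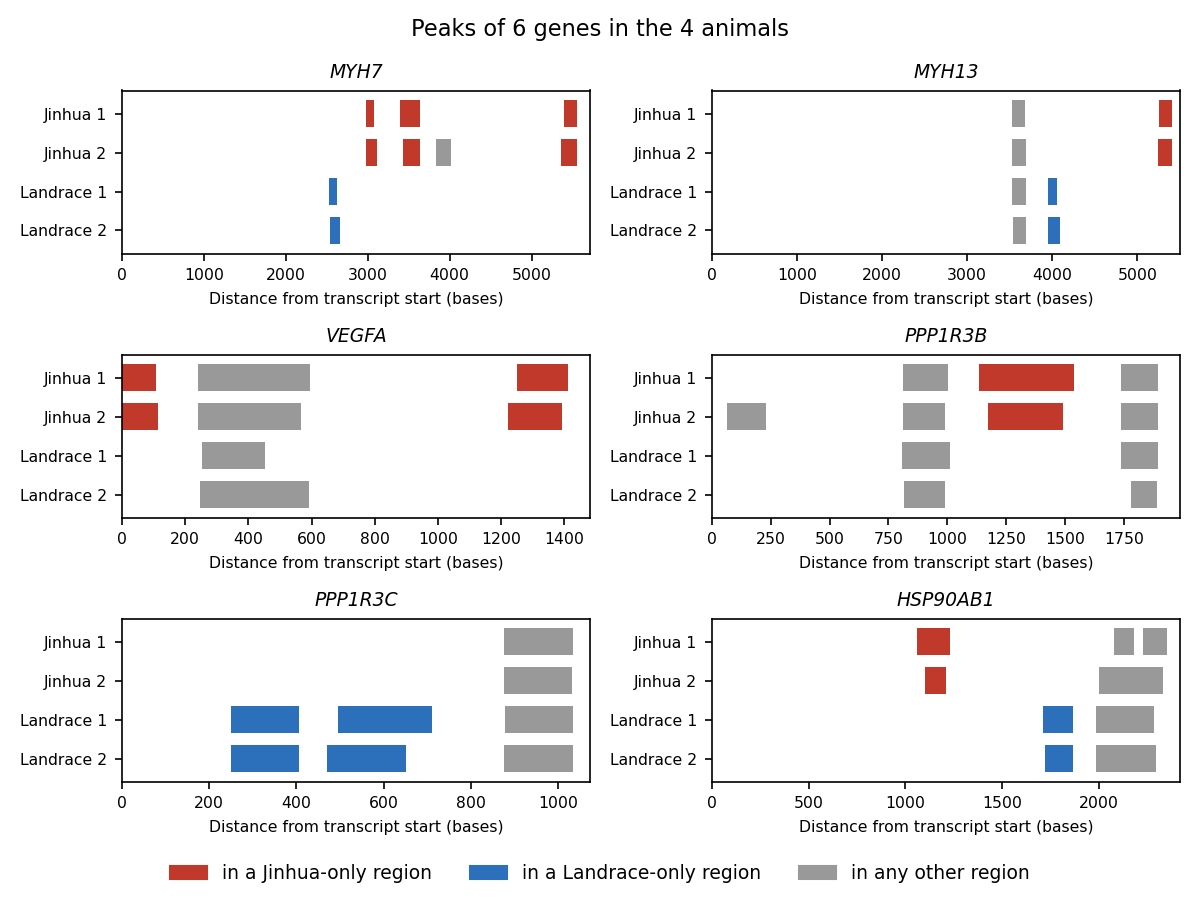
Peaks of 6 genes drawn to scale along the transcript (horizontal axis, bases from its start), with a row per animal and Jinhua above Landrace. Red bars lie in Jinhua-only regions, blue bars in Landrace-only regions and grey bars in all others; MYH7 has no region in all 4 animals, while the other 5 genes each have at least 1.

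A list of 60 sarcomere and Z-disc symbols, put together with earlier results of these data known, found 33 of the genes analysed. Of their 90 regions, 10 were breed-parted (11.1%), 5 Jinhua-only and 5 Landrace-only, beside 1 and 0 in the mixed splits. All the breed-parted regions of MYH7 are among these 10, so 1 gene gives much of this share. The share over all regions was 6.36% for the breed split. The list of calcium handling and excitation genes had 5 of 41 regions breed-parted (12.2%), 3 Jinhua-only and 2 Landrace-only, beside 0 and 1 in the mixed splits. The list of muscle formation and wasting genes held 1 of 43 (2.33%), in ANKRD1, beside 1 and 1 in the mixed splits. Regions of a list are not independent, since several can lie in 1 gene. Each share also depends on which symbols were listed, here and in the lists below.

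Genes of calcium handling held members of both kinds. ATP2A1 had 3 coding regions in all 4 animals. Its additional Landrace-only region was covered at 1791 to 1898 in Landrace 1 and 1791 to 1899 in Landrace 2, 171 bases from the nearest Jinhua peak. CLCN1, the muscle chloride channel, had a Jinhua-only coding region at 2173 to 2390, beside a coding region of all 4 animals at 2778 to 2938. FKBP1A, which binds and steadies the ryanodine receptor, had a Jinhua-only 3′ UTR region at 1047 to 1224, with peaks at 1069 to 1224 in Jinhua 1 and 1047 to 1186 in Jinhua 2. CAMK2G, a calcium- and calmodulin-dependent kinase, had regions of both kinds, a Jinhua-only one in the 3′ UTR at 1521 to 1723 and a Landrace-only one at 1 to 126 in the coding sequence. CALM3, 1 of the calmodulin genes, had a Landrace-only 3′ UTR region at 1076 to 1247, with the caution that calmodulin genes resemble each other. SLC6A8, the creatine transporter, had a Jinhua-only coding region at 761 to 960.

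Members of both kinds were also found among glycogen genes. PPP1R3C and PPP1R3B encode glycogen-targeting subunits that bring protein phosphatase 1 to glycogen. PPP1R3C (ENSSSCT00000011452) carried 1 peak in either Jinhua list, against 3 in either Landrace list. The peak common to all 4 lay at 877 to 1033 and differed by no more than 1 base at either end between animals. Its Landrace-only coding regions lay at 249 to 406 and 470 to 710, with peaks at 250 to 405 and 496 to 710 in Landrace 1 and at 249 to 406 and 470 to 650 in Landrace 2. PPP1R3B went the other way, with 4 peaks in either Jinhua list and 2 in either Landrace list. Its Jinhua-only region in the 3′ UTR at 1135 to 1539 lay between regions of all 4 animals at 809 to 1011 and 1736 to 1895. GYG1, glycogenin, the primer of glycogen synthesis, had a Jinhua-only coding region at 684 to 973. SLC37A4, which carries glucose 6-phosphate into the endoplasmic reticulum, had a Jinhua-only coding region at 811 to 933. In the list of glycogen and glycolysis genes, 5 of 46 regions were breed-parted (10.9%), 3 Jinhua-only and 2 Landrace-only, beside 0 and 1 in the mixed splits. Both Landrace-only regions of this list lay in PPP1R3C. Over all regions the share was 6.36%.

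Mitochondrial members numbered 11 Jinhua-only and 7 Landrace-only regions. ETFDH passes electrons from fatty acid oxidation to ubiquinone, and its Jinhua-only coding region lay at 461 to 629 in Jinhua 1 and 477 to 635 in Jinhua 2. HADH, which carries out the third step of β-oxidation, had a Jinhua-only coding region at 72 to 210, 125 bases from the nearest Landrace peak. IVD, isovaleryl-CoA dehydrogenase of leucine breakdown, had a Jinhua-only 3′ UTR region at 3070 to 3250. ATP5A1, the α subunit of ATP synthase, had a Jinhua-only coding region at 643 to 790, 40 bases from the nearest Landrace peak. CRAT, carnitine acetyltransferase, had a Landrace-only coding region at 250 to 407, identical in both Landrace animals and 1543 bases from any Jinhua peak. FECH, ferrochelatase of haem synthesis, also had a Landrace-only region with identical bounds, at 142 to 297. PINK1, a kinase that marks damaged mitochondria, and POLG, the mitochondrial DNA polymerase, had Landrace-only regions at 1800 to 1953 in the 3′ UTR and at 11 to 135 in the coding sequence. NDUFB10, a subunit of complex I, had one at 133 to 293 in the coding sequence. The list of fatty acid oxidation genes had 3 of 34 regions breed-parted (8.82%), 2 Jinhua-only and 1 Landrace-only, beside 0 and 1 in the mixed splits. The list of mitochondrial carriers and dynamics had 2 of 44 (4.55%), both Landrace-only, beside 0 and 1 in the mixed splits. Over all regions the share was 6.36%.

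Few members were genes of lipid storage. ACSL1, which activates long-chain fatty acids, had 3 and 4 peaks in Jinhua 1 and Jinhua 2 and 1 in each Landrace animal. Its Jinhua-only coding region lay at 1800 to 1960 in Jinhua 1 and 1805 to 1940 in Jinhua 2. No region of ACSL1 was found in all 4 animals, since Landrace 1 had its peak at 1 to 147 and Landrace 2 at 2614 to 2812. INSIG1, which holds back the activation of sterol regulatory proteins, had a Landrace-only coding region at 171 to 338 in Landrace 1 and 121 to 338 in Landrace 2. DAGLA, a diacylglycerol lipase, and LMF2, a lipase maturation factor, had Jinhua-only coding regions at 3211 to 3331 and 169 to 371. GBA2, a glucosylceramidase, and STARD10, a lipid transfer protein, had Landrace-only coding regions at 1 to 232 and 1 to 190. The list of fatty acid uptake and lipid synthesis had 2 of 23 regions breed-parted (8.70%), 1 of each kind, beside 2 and 3 in the mixed splits. The lists of lipid droplet and lipolysis genes, of adipogenesis regulators and of adipocyte markers had 0 of 13, 0 of 13 and 0 of 5 regions breed-parted. The mixed splits held 2 and 0 in the lipid droplet list, 0 and 0 among the adipogenesis regulators and 2 and 0 among the adipocyte markers. With so few regions, a share near the overall 6.36% would give about 1 or none, so these zeros say little.

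Some genes of the m6A machinery were among the members. ALKBH5, the demethylase, had coding regions in all 4 animals at 97 to 250, the same bases in each list, and at 764 to 941. Its Landrace-only region lay far downstream in the 3′ UTR, at 2225 to 2379 in Landrace 1 and 2279 to 2433 in Landrace 2, 1283 bases from any Jinhua peak. YTHDF2, a reader that promotes decay of marked transcripts, had a coding region in all 4 animals at 168 to 368. Its Jinhua-only coding region lay at 1761 to 1885 in Jinhua 1 and 1741 to 1885 in Jinhua 2, 1400 bases from any Landrace peak. EIF3A, a subunit of the initiation factor eIF3 that can bind m6A in 5′ UTRs, had a Jinhua-only coding region at 3821 to 3970, beside a region of all 4 animals at 3149 to 3391. Of the 26 listed machinery symbols 4 could be analysed, with 11 regions, of which 3 (27.3%) were breed-parted and 0 and 0 were private to the mixed splits. The share over all regions was 6.36%, and counts this small describe these transcripts only.

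Signalling genes held 15 Jinhua-only and 19 Landrace-only regions, beside 171 and 140 over all members. VEGFA, the main growth factor of blood vessels, had 4 peaks in either Jinhua list, against 1 in Landrace 1 and 2 in Landrace 2. Its Jinhua-only regions lay at both ends of the transcript. At the start, Jinhua 1 had a peak at 1 to 106 and Jinhua 2 at 1 to 112, placed in the 5′ UTR by the list of Jinhua 1 alone. In the 3′ UTR, the peaks lay at 1251 to 1409 in Jinhua 1 and 1221 to 1390 in Jinhua 2. Between them, all 4 animals had peaks within 240 to 595. CNTFR, a subunit of the receptor for ciliary neurotrophic factor, had a Jinhua-only coding region at 72 to 290. FST, the myostatin and activin antagonist follistatin, had a Landrace-only coding region at 474 to 636. SMAD4, the common signal transducer of the transforming growth factor β family, had a Landrace-only 5′ UTR region at 1 to 141. PMEPA1, which binds SMAD proteins, had one in the 3′ UTR at 1111 to 1318. FRZB, a secreted Wnt antagonist, had a Landrace-only 5′ UTR region at 3 to 188. SMO, the hedgehog signal transducer, had one at 1 to 161, also in the 5′ UTR. TSC2, which restrains mTORC1, had a Landrace-only 3′ UTR region at 5855 to 6044, and NOTCH2, a Notch receptor, had one at 6591 to 6790. These genes were grouped with their regions known, and no test was made of the grouping. In the gene lists, Wnt, TGF-β and Hippo genes had 1 of 18 regions breed-parted (5.56%), in SMAD4, beside 1 and 0 in the mixed splits. Insulin, IGF and AMPK genes had 1 of 34 (2.94%), in TSC2, beside 1 and 3 in the mixed splits. Over all regions the share was 6.36%.

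Extracellular matrix and adhesion genes held 12 Jinhua-only and 10 Landrace-only regions. MMP2, a gelatinase, had a Jinhua-only coding region at 1001 to 1159. PLOD1, a lysyl hydroxylase of collagen, had one at 311 to 560, and SPARCL1, a matricellular glycoprotein, had one at 1777 to 1930. HTRA1, a secreted serine protease, had a Jinhua-only 3′ UTR region at 2321 to 2460. BGN, the small proteoglycan biglycan, had a Landrace-only 3′ UTR region at 1221 to 1410. HMCN2, a hemicentin, had a Landrace-only coding region at 1791 to 1986, 4059 bases from any Jinhua peak. CD34, a surface protein of endothelial and progenitor cells, had a Landrace-only region at 181 to 330, which the lists placed in different parts of the transcript. The list of matrix and fibroblast genes had 2 of 59 regions breed-parted (3.39%), in MMP2 and BGN, beside 0 and 0 in the mixed splits. Over all regions the share was 6.36%. The lists of endothelial, immune, and nerve, satellite cell and blood genes had 0 of 25, 0 of 4 and 0 of 1. The mixed splits held 3 and 0 in the endothelial list and 0 and 0 in each of the others. CD34 was not counted in the endothelial list, so these shares depend on which symbols were listed.

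Some related autophagy genes had regions of opposite kinds, and these pairs were picked with their regions known. MAP1LC3B, an ubiquitin-like protein that coats autophagosomes, had a region of all 4 animals in the coding sequence at 2 to 198 and a Jinhua-only 3′ UTR region, at 1191 to 1340 in Jinhua 1 and 1169 to 1324 in Jinhua 2. Its relative GABARAPL1 had a 3′ UTR region of all 4 animals at 241 to 491 and a Landrace-only 3′ UTR region at 793 to 946, identical in both animals. WDR45, a phosphoinositide-binding protein of autophagosome formation, had a Jinhua-only coding region at 522 to 688. Its paralogue WDR45B had a Landrace-only coding region at 49 to 200. RB1CC1 and AMBRA1, which act in the start of autophagy, had Jinhua-only coding regions at 4091 to 4215 and 3697 to 3917. FBXO40, a muscle ubiquitin ligase component, and CAPN2, a calpain protease, had Jinhua-only 3′ UTR regions at 1881 to 2085 and 2061 to 2180. ASB13 and UBE2Z, of the ubiquitin system, had Landrace-only 3′ UTR regions at 1131 to 1288 and 2327 to 2492. Ubiquitin, proteolysis and autophagy genes made up 13 Jinhua-only and 10 Landrace-only regions.

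Transcription and chromatin genes held 20 Jinhua-only and 18 Landrace-only regions. Roles were assigned to member genes alone, so the share of all analysed genes in each role is unknown and the sizes of the role groups cannot be ranked against it. CHD8, a chromatin remodeller, had a Jinhua-only coding region at 7481 to 7636, the farthest of all members from the other breed's peaks, at 5604 bases. SETD7, a lysine methyltransferase, had a Jinhua-only 3′ UTR region at 4021 to 4213. SMARCC2 and SMARCD3, subunits of the SWI/SNF remodelling complexes, had Jinhua-only coding regions at 2731 to 2860 and 247 to 407, and WDR5, a subunit of histone methyltransferase complexes, had one at 167 to 318. TBX15, a T-box factor of muscle and skeleton, had a Jinhua-only coding region at 1124 to 1282. RELA, a subunit of NF-κB, had a Landrace-only coding region at 13 to 120 in Landrace 1 and 8 to 120 in Landrace 2, beside regions of all 4 animals at 1161 to 1360 and 1556 to 1727. CRY2, a clock repressor, and PARP1, a DNA repair enzyme, had Landrace-only coding regions at 81 to 200 and 79 to 249. CDK9, the kinase that releases paused RNA polymerase II, had a Landrace-only 5′ UTR region at 1 to 100, and NELFA, a subunit of the pausing factor NELF, had a Landrace-only coding region at 1351 to 1510.

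RNA processing and decay genes held 12 Jinhua-only and 10 Landrace-only regions. ZFP36L1 and ZFP36L2 bind AU-rich elements and promote decay. ZFP36L1 had a Jinhua-only 3′ UTR region at 1776 to 1970, while ZFP36L2 had a Jinhua-only coding region at 941 to 1225 and a Landrace-only one at 557 to 710. Splicing factors were found on both sides, among them SNW1 and WBP11 with Jinhua-only coding regions at 23 to 175 and 1220 to 1401, and PRPF6, PRPF31 and SF1 with Landrace-only coding regions at 2141 to 2331, 53 to 212 and 1681 to 1820. ILF2, a double-stranded RNA-binding protein complex subunit, had a Jinhua-only region at 1 to 117, with a Jaccard index of 0.991 between both animals. EDC4, a scaffold of the decapping complex, had a Landrace-only region at 41 to 300, 2619 bases from any Jinhua peak. Its peaks lay at 41 to 140 in Landrace 1 and 95 to 300 in Landrace 2, shared 46 bases, and were placed in different parts of the transcript. Translation genes held 5 Jinhua-only and 2 Landrace-only regions, among them EEF2, the elongation factor of ribosome translocation, Jinhua-only at 1001 to 1140.

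Protein folding and endoplasmic reticulum genes held 8 Jinhua-only and 4 Landrace-only regions. CALR, the chaperone calreticulin, had a Jinhua-only 3′ UTR region at 1615 to 1819. PDIA3 and DNAJB11, a disulfide isomerase and a co-chaperone of the same compartment, had Jinhua-only coding regions at 861 to 1010 and 798 to 950. PRKCSH, a glucosidase subunit, and MLEC, the lectin malectin, had them at 635 to 915 and 931 to 1050. The peak of DNAJB11 had the same start and end in both Jinhua animals. HSP90AB1, a cytosolic chaperone, had 3 peaks in every animal and regions of both kinds. Its Jinhua-only coding region lay at 1061 to 1230 in Jinhua 1 and 1101 to 1210 in Jinhua 2. The Landrace-only coding region lay at 1715 to 1869 in Landrace 1 and 1721 to 1869 in Landrace 2, and all 4 animals had peaks within 1988 to 2354. HSP90 genes are similar to each other, so these calls may draw on shared reads.

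Cytoskeleton and membrane traffic genes held 15 Jinhua-only and 16 Landrace-only regions. DCTN2, a subunit of the dynein partner dynactin, had a Jinhua-only coding region at 406 to 580, with a Jaccard index of 0.971 between the Jinhua animals. CLIP1, which tracks growing microtubule ends, and ENAH, an actin regulator, had Jinhua-only coding regions at 212 to 490 and 1372 to 1571. ACTN4, a non-muscle α-actinin, and ANXA6, a calcium-dependent membrane-binding annexin, had Landrace-only coding regions at 1931 to 2120 and 441 to 580. NUDC, a partner of the dynein system, had a Landrace-only region at 1 to 143 with the same bounds in both Landrace animals. LMNB2, a lamin of the nuclear envelope, had a Landrace-only coding region at 343 to 570.

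**Figure D3:**
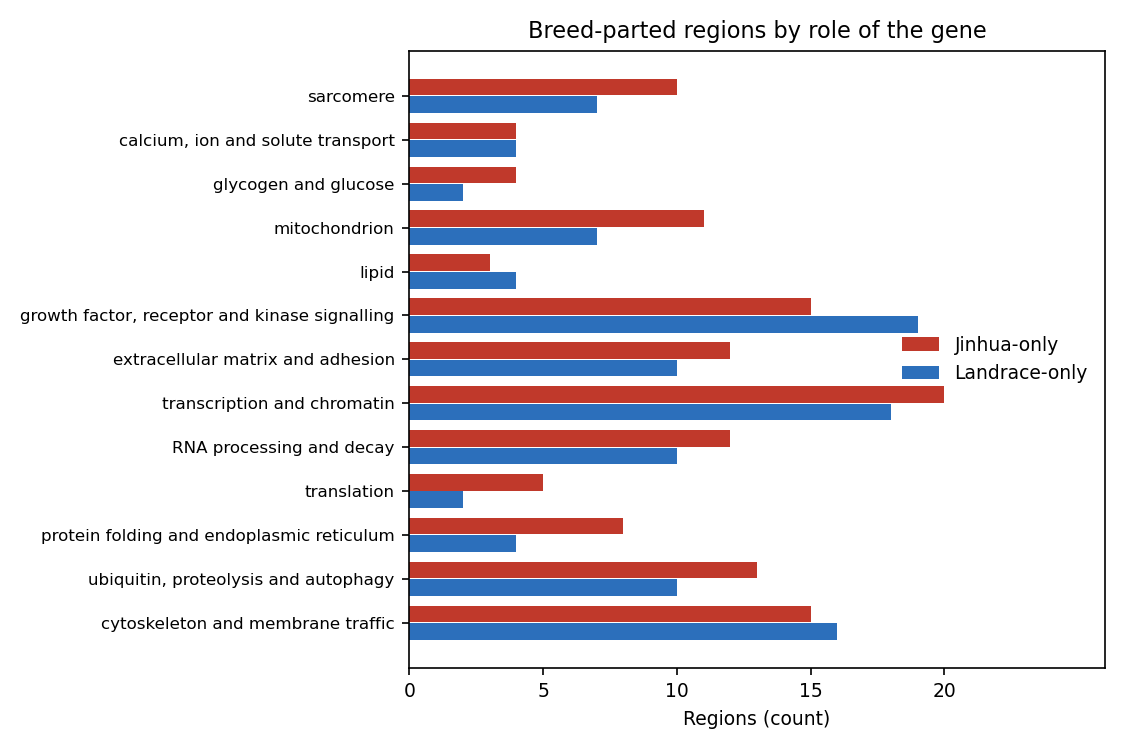
Number of Jinhua-only (red) and Landrace-only (blue) regions by role of the gene; roles were assigned to member genes with their regions known, and 39 regions with no role assigned and 27 without a symbol are not drawn. Transcription and chromatin has the longest Jinhua-only bar (20 regions), and signalling, lipid, and cytoskeleton and membrane traffic are the groups with more Landrace-only than Jinhua-only regions. Over all members the counts are 171 Jinhua-only and 140 Landrace-only, and no role was tested for a difference between the breeds.

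In 15 genes both kinds occurred together, so that each breed had a position of its own on the same transcript. The mixed splits had 3 and 8 such genes. Beside MYH7, MYH13, CAMK2G, HSP90AB1 and ZFP36L2, they included LOXL1, a lysyl oxidase of elastic fibres, with a Jinhua-only coding region at 641 to 870 and a Landrace-only 5′ UTR region at 131 to 297. The Jinhua peaks of LOXL1 lay at 641 to 740 and 721 to 870 and shared 20 bases, and the nearest Landrace peak was 39 bases away. IDH3A, a catalytic subunit of mitochondrial isocitrate dehydrogenase, had a Jinhua-only 3′ UTR region at 2131 to 2290 and a Landrace-only region at 1 to 146, the same bases in both Landrace animals. PI4KB, a phosphatidylinositol kinase of the Golgi, had a Jinhua-only coding region at 281 to 430 and a Landrace-only one at 668 to 841. These lay 237 and 70 bases from the nearest peak of the other breed. KDM6B, a histone demethylase, had its Jinhua-only region at 3051 to 3182 and its Landrace-only region at 2778 to 2938, 112 bases apart. In DDX42, an RNA helicase of the spliceosome, the Jinhua-only region at 1863 to 2022 and the Landrace-only region at 2054 to 2230 were 31 bases apart. ATN1, the transcriptional co-repressor atrophin, had a Jinhua-only region at 3751 to 3990 in the coding sequence and a Landrace-only region at 225 to 408 in the 5′ UTR. CYB5R3, a cytochrome b5 reductase, had a Jinhua-only region at 81 to 330 in the coding sequence and a Landrace-only region at 871 to 1000 in the 3′ UTR. Other peaks lay close: the Jinhua-only region was 30 bases from a Landrace peak and the Landrace-only region 14 bases from a Jinhua peak. SMTNL2, a smoothelin-like protein, had a Jinhua-only coding region at 574 to 1030 and a Landrace-only one at 381 to 570, with 3 bases between the nearest peaks. The remaining 2 genes have no symbol.

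Of genes with a symbol, VEGFA, PPP1R3C, MYH7 and TUBB had more than 1 region of the same kind. TUBB, a β-tubulin, had 2 peaks in either Jinhua list and 4 in either Landrace list, with Landrace-only regions at 81 to 210 in the 5′ UTR and 580 to 737 in the coding sequence. Tubulin genes are close copies, and their peaks are uncertain in the same way as those of the myosins. Including genes without a symbol, 6 genes had more than 1 region of the same kind.

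The kinds of region were also set side by side by the annotated part of the transcript, which the rule did not use. Coding sequence held 133 of 171 Jinhua-only regions (77.8%, 95% Wilson interval 71 to 83.4) and 84 of 140 Landrace-only regions (60%, 51.7 to 67.7). The 3′ UTR held 31 Jinhua-only (18.1%, 13.1 to 24.6) and 29 Landrace-only regions (20.7%, 14.8 to 28.2). The 5′ UTR held 4 Jinhua-only (2.34%, 0.913 to 5.86) and 15 Landrace-only regions (10.7%, 6.60 to 16.9). These intervals cover counting only and treat regions as independent. Regions of all 4 animals had 64.1% in coding sequence, 20.5% in the 3′ UTR and 5.60% in the 5′ UTR. The coding share moved with the animals in a pair. Mixed pairs with Jinhua 2 had coding shares of 77.3% with Landrace 2 and 71.9% with Landrace 1, while mixed pairs with Jinhua 1 had 52.4% and 57.7%. Without Landrace 1, the coding share was 70.4% for Jinhua-only and 70.2% for Landrace-only regions, and without Jinhua 2 it was 70% for Jinhua-only and 68.5% for Landrace-only regions. Without Jinhua 1, the share was 69.8% for Jinhua-only and 60.3% for Landrace-only regions, and without Landrace 2 it was 72% and 63.3%. The gap in coding share between the breeds was thus nearly gone without Landrace 1 or Jinhua 2, and smaller but present without Jinhua 1 or Landrace 2. Leaving out an animal also changes the rule, since a region then needs 1 animal fewer. The part of a single animal in the gap was not tested.

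**Figure D4:**
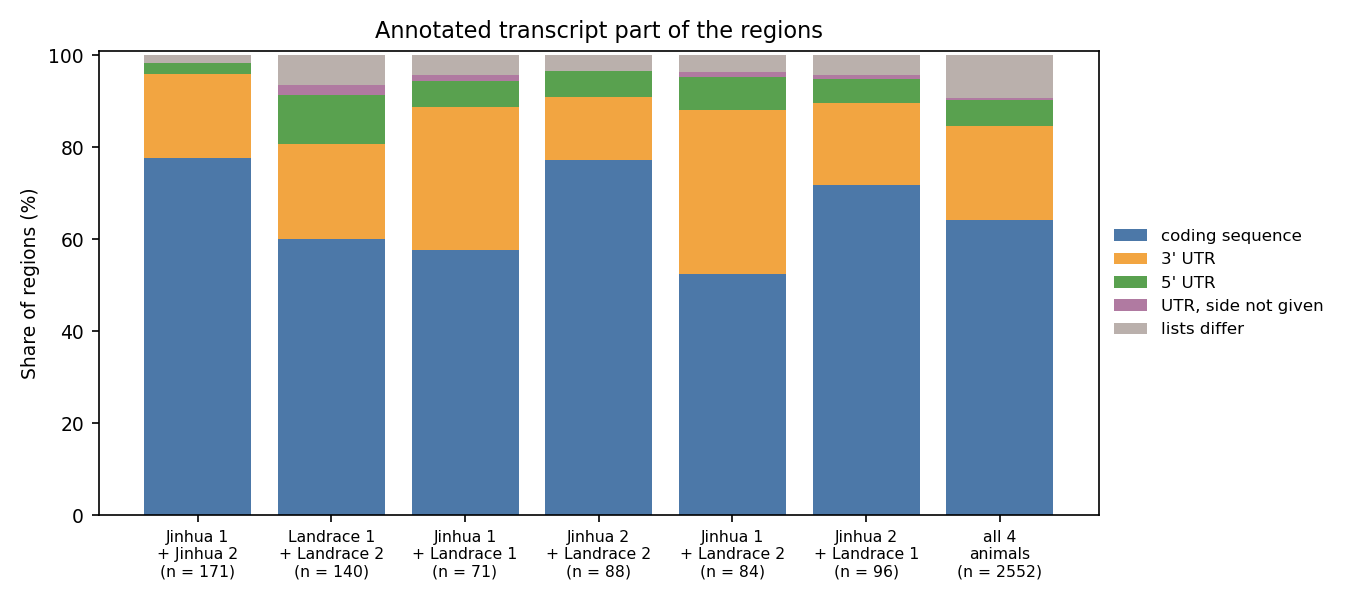
Share of regions (vertical axis, %) by annotated part of the transcript, for the private regions of each pair of animals and for regions of all 4. Coding sequence is highest in the Jinhua pair (77.8%) and in the mixed pairs with Jinhua 2 (77.3% and 71.9%), and the 5′ UTR is highest in the Landrace pair (10.7%).

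The Jinhua-only 5′ UTR regions lay in VEGFA, CD248, a surface protein of fibroblasts and pericytes, at 251 to 450, AP4B1, a subunit of an adaptor complex, at 133 to 260, and the readthrough gene TMEM256-PLSCR3 at 69 to 259. Landrace-only 5′ UTR regions lay in, among others, SMAD4, SMO, FRZB, CDK9, NEXN, TUBB, ATN1 and LOXL1. They also lay in RHOQ, a small GTPase of insulin-stimulated glucose uptake, at 1 to 140, and CAB39, a scaffold of the kinase LKB1, at 168 to 330. Regions that began at the first base of the transcript were 7 of 171 Jinhua-only (4.09%) and 14 of 140 Landrace-only (10%), against 261 of the 2552 regions of all 4 animals. Of these, 6 Jinhua-only and 7 Landrace-only regions were annotated as coding.

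Where both animals of a breed had a region, their peaks covered much the same bases. The Jaccard index, the shared bases over the bases covered by either, had a median of 0.770 for Jinhua-only and 0.844 for Landrace-only regions, against 0.721 to 0.767 in the mixed pairs. In regions of all 4 animals the median was 0.869 for the Jinhua pair, 0.892 for the Landrace pair and 0.816 to 0.851 for mixed pairs. The median width of a member was 164 bases for Jinhua-only and 162 for Landrace-only regions. Peaks in members had median widths of 142 bases in Jinhua 1, 152 in Jinhua 2 and 154 in both Landrace lists. Peaks in regions of all 4 animals had median widths of 166 bases in Jinhua 1, 164 in Jinhua 2 and 160 in both Landrace lists.

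Since the rule required a peak in all 4 lists, every member lay on a transcript with a peak elsewhere in the other breed. A region of all 4 animals lay on the same transcript for 135 Jinhua-only regions (78.9%) and 102 Landrace-only regions (72.9%), against 63.4% to 79.5% of regions in the mixed pairs. Both animals of the breed had more peaks on the gene than either animal of the other breed for 114 Jinhua-only (66.7%) and 53 Landrace-only regions (37.9%), and for 43.7% to 54.5% of regions in the mixed pairs. The median distance to the nearest peak of the other breed was 456 bases for Jinhua-only and 289 for Landrace-only regions, and 331 to 451 to the other pair's nearest peak in the mixed pairs. A peak of the other breed lay within 100 bases of 24 Jinhua-only (14%) and 33 Landrace-only regions (23.6%). In the mixed pairs, 12.5% to 17.9% of regions had a peak of the other pair that close.

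**Figure D5:**
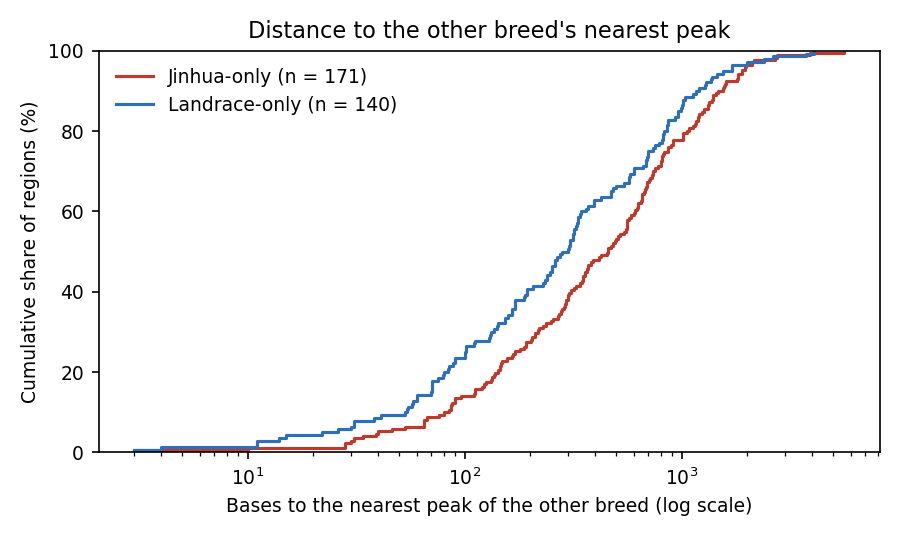
Cumulative share of Jinhua-only (red) and Landrace-only (blue) regions (vertical axis, %) by the number of bases to the nearest peak of the other breed (horizontal axis, log scale). The medians are 456 bases for Jinhua-only and 289 for Landrace-only regions, and 14% of Jinhua-only and 23.6% of Landrace-only regions lie within 100 bases.

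At the edge of the rule, the members closest to the other breed were the adjacent regions of SMTNL2, 3 bases apart, and the Landrace-only region of FKBP9, a peptidyl-prolyl isomerase of the endoplasmic reticulum, at 1725 to 2040, 4 bases from a Jinhua peak. Just outside, BCAM, a laminin receptor, had a region of all 4 animals at 1698 to 2036 in which the breeds shared 3 bases. CORO6, a coronin, shared 19 bases at 421 to 720 and KPNB1, importin β, shared 39 at 151 to 401. Of the 2552 regions of all 4 animals, 5 had fewer than 50 bases common to the breeds and 0 had none.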

How the data were processed

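Muscle m6A peaks of 2 Jinhua and 2 Landrace males were compared. The submitters' processing notes name the aligner TopHat2 2.0.14 and, as genome builds, susScr3 and Sscrofa10.2. For the peak caller, the sources used here give no name or threshold. Each list deposited by the authors holds a gene, 1 Ensembl transcript and its peaks, with their number, bounds and transcript part. Positions count from 1 at the transcript's 5′ end, and no genome coordinates or sequences are given. The deposited values are positions, not counts, so depth is unknown. The lists of Jinhua 2 and Landrace 1 give no part for peak 4 of a gene, so the part of 16 of the 311 members comes from 1 list. In 283 of the other 295 members both lists gave the same part; the other 12 were counted as placed differently.

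Peaks that overlapped or directly adjoined over the 4 lists were merged (Python 3.11.15, numpy 2.4.6), a step tested on simulated peaks. Shares have Wilson intervals (statsmodels 0.14.6), and peak numbers were compared by exact permutation (scipy 1.17.1). Symbols came from the lists and, for 20 member genes, from a gene name table; 23 member genes have none. The members, gene lists and roles were chosen with earlier results of these data known. Named were members in the gene lists, genes with both kinds of region or with more than 1 of a kind, and the members with the highest Jaccard index or the shortest or greatest distance to the other breed. Some members that this rule names are not reported here. The other members named in the text were chosen after their positions were seen. Alternatives were joining peaks within 50 or 100 bases, an overlap of 50% of the shorter peak, at most 3 peaks per gene, a minimum width of 100 bases, direct overlap of both peaks, and leaving out each animal.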

Additional observations from a re-analysis of the deposited data

How the results depend on the processing

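With an animal left out a region needs 1 animal fewer, so the counts were larger by construction: 318 to 599 Jinhua-only, 286 to 384 Landrace-only and 670 to 901 breed-parted regions. The coding share then ran from 69.8% to 72% for Jinhua-only and from 60.3% to 70.2% for Landrace-only regions, and the 3′ UTR share of Jinhua-only regions from 20.7% to 25.9%. With all 4 animals, the breed split held more regions than either mixed split under each alternative: 288 against 151 and 162 with peaks within 50 bases joined, 248 against 137 and 148 within 100 bases, 365 against 189 and 199 with the stricter overlap, 298 against 149 and 169 with direct overlap, and 234 against 129 and 147 with at most 3 peaks. All peaks were 100 bases or wider, so the minimum width changed nothing. Of the 311 members, 244 remained with peaks within 100 bases joined, and 179 under all of these alternatives together. The regions of EDC4, NOTCH2 and LMNB2, and the Jinhua-only regions of ZFP36L2 and LOXL1, were among those lost under both the stricter overlap and direct overlap. Lost at 100 bases were regions of MYH1, NRAP, LMOD3, PINK1, POLG, SMAD4, PI4KB, DDX42, SMTNL2, CYB5R3, FKBP9 and LOXL1, among others; MYH7, VEGFA, PPP1R3B, TUBB, ATP2A1 and ACSL1 have 4 peaks in a list and drop out at 3. Genes with both kinds numbered 10 to 24 in the breed split, 3 to 5 in the split with Jinhua 1 and Landrace 1, and 5 to 9 in the other. No paired analysis was possible because the replicate numbers name different animals of each breed, and the regions come from calls and not from a fit. The main limits are 2 animals per breed, unknown depth and no measure of peak strength.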
